A study of Rattus norvegicus with 23 samples.

Results

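The lungs of elderly rats that had inhaled a titanium dioxide (TiO2) nano-aerosol were compared with the lungs of rats that had breathed filtered air, 28 days after the last exposure (D28). This comparison used 12 of the 23 arrays of the series, 6 of exposed rats and 6 of control rats, with 1 rat on each array. The members were chosen by the titles of the arrays, because the source label of the exposed D28 arrays reads day 0 while their titles and descriptions give day 28. All rats were male F344 rats, an inbred strain, with an age given as 19 months for both days. The exposed rats received TiO2 at 10 mg/m3 through the nose only, for 6 h/day, 5 days/week and 4 weeks. The control rats were kept under the same schedule with filtered air, and no other agent or genotype distinguished the groups. RNA came from the accessory lobe of the lung, a mixed tissue. The other 11 arrays, 6 of controls and 5 of exposed rats killed at the end of exposure (D0), entered the statistical model and gave the D0 values quoted below.

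Poorly soluble particles that reach the alveoli are taken up mainly by alveolar macrophages, which carry them into lysosomes and clear them slowly towards the airways or the lymphatics. Lung epithelium and macrophages also make defence proteins that are better known from the liver, such as complement components and acute-phase proteins. The airway surface has a peroxidase system of its own, in which a dual oxidase makes hydrogen peroxide and lactoperoxidase uses it to oxidise thiocyanate.

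Signals are given as log2 of the quantile normalized array signal, averaged over the probes of a gene, and a log2 fold change (FC) is the mean of the exposed minus the mean of the control rats. A gene was a differentially expressed gene (DEG) when the adjusted p of limma over all 23255 genes was below 0.05 and the change was 1.5-fold or more, up or down. The 75th percentile of the raw signal ran from 1711.5 to 3470.1 in controls and from 1382.9 to 2714.1 in exposed rats, and 69.63% to 77.85% of the spots were well above background. Exposed replicate 1 stood apart by the mRNA of skeletal muscle: the log2 signal of Myh1, a fast muscle myosin, was 10.66 there and at most 4.60 on the other 11 arrays, and Tnnt3, a fast muscle troponin, was 9.98 there and at most 7.31 elsewhere. Exposed replicate 4 had the highest log2 signal of S100a9, a neutrophil and monocyte protein, at 15.77, and was the highest exposed array for 37 of the 112 over-expressed DEGs. Without exposed replicate 1 there were 111 DEGs, 107 of them among the 174 found with it, and without exposed replicate 4 there were 144, of which 120 were among the 174. Control replicate 4 was the only array of the series on its slide and was read with another software version than the other 22. It had the highest 75th percentile (3470.1) and the highest share of spots well above background (77.85%). Without it there were 145 DEGs, of which 124 were among the 174. On the 3 slides that held both groups, none of which carried exposed replicate 1, the 174 DEGs kept their direction in 174, 174 and 171 cases. The DEGs were chosen on values that include these arrays, so this agreement is not a separate check of them.

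Of the 23255 genes, 174 (0.748%) were DEGs on D28, of which 112 (0.482%) were over-expressed and 62 (0.267%) were under-expressed in exposed rats. Without the FC limit 303 genes (1.3%) passed, and at an unadjusted p below 0.05 there were 1112 higher (4.78%) and 1432 lower (6.16%) genes. At an FC of at least 2 there were 53 over-expressed and 22 under-expressed DEGs, and at an FC of at least 4 there were 13 and 1. The exposed and the control arrays did not overlap for 109 of the DEGs, against 282 genes (1.21%) without overlap in all. The median log2 FC was 0.94 for over-expressed and -0.83 for under-expressed DEGs, whereas it was -0.01 over all genes. The mean log2 signal of the over-expressed DEGs, which were chosen on these values, was between 7.089 and 7.501 in controls and between 8.341 and 8.663 in exposed rats, and that of the under-expressed DEGs was between 7.826 and 8.007 in controls and between 6.872 and 7.12 in exposed rats. When only the 12 arrays of D28 were in the model there were 41 DEGs, 38 of them among the 174.

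**Figure D1:**
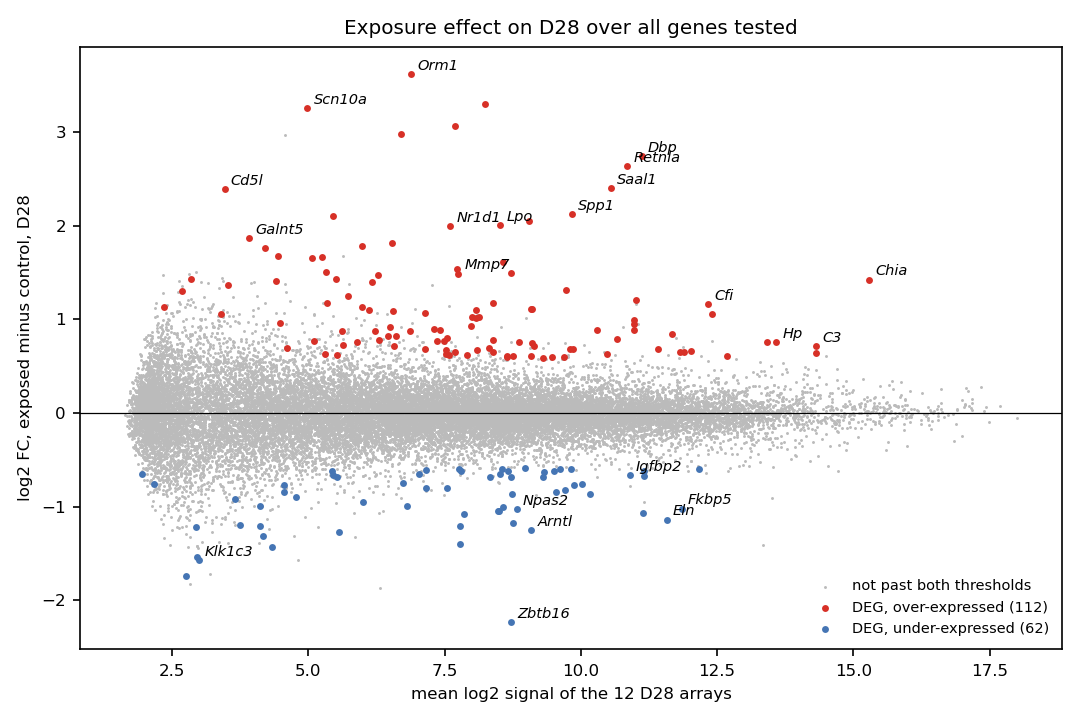
Log2 FC on D28 (exposed minus control) against the mean log2 signal of the 12 D28 arrays, with each point a gene and DEGs in red (over-expressed) and blue (under-expressed). Over-expressed DEGs reached further from 0 than under-expressed ones, up to 3.62 for Orm1 against -2.23 for Zbtb16.

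Acute-phase and secreted defence proteins were among the most over-expressed genes 28 days after exposure. In controls, the log2 signal of Orm1, which encodes the acute-phase plasma protein orosomucoid, ran from 2.37 to 6.53 with a median of 5.41, and in exposed rats it ran from 7.80 to 9.07 with a median of 8.82. The lowest exposed rat was above the highest control, and the FC was 12.3 (log2 FC 3.62, standard error 0.53, adjusted p = 0.00104), with the probe well above background in 5 of 6 controls. Saal1, annotated as serum amyloid A-like, had 8.82 to 9.98 in controls (median 9.28) and 11.06 to 12.84 in exposed rats (median 11.66), again without overlap (log2 FC 2.40, adjusted p = 0.000719). The only probe of Saal1 had no match in the current RefSeq annotation, so its identity and its place in this list are uncertain. Haptoglobin, Hp, which binds free haemoglobin, had 12.86 to 13.39 in controls and 13.74 to 14.49 in exposed rats (log2 FC 0.76, adjusted p = 0.0074). Ptx3, a soluble pattern recognition protein, had a log2 FC of 1.03 and Chi3l1, a chitinase-like lectin, one of 0.95, with 1 and 2 exposed rats within the control range. The call of Chi3l1 was lost in 11 of the 35 refits described in the closing section. In contrast, Wfdc21, a small whey acidic protein family member, was under-expressed, with 11.19 to 12.07 in controls and 10.64 to 11.33 in exposed rats (log2 FC -0.68, adjusted p = 0.016). These were the 6 DEGs among the 26 measured genes of the list, against 0.748% of all genes. In the list 17 genes were higher in exposed rats, where 48.9% of all genes were, and the median log2 FC was 0.13. Itih1, a heavy chain of a plasma protease inhibitor and a gene outside the lists, rose from 4.83 to 5.84 up to 6.48 to 7.70 (log2 FC 1.40, adjusted p = 0.00934). Beside these values, Alb and Apoa1, defining genes of hepatocytes, were well above background on 1 and 0 of the 12 arrays, and the log2 signal of Alb did not exceed 3.46.

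Complement genes were over-expressed at moderate sizes. Of the 39 measured components and regulators, 5 were DEGs, all over-expressed, against 0.482% of all genes, 29 were higher in exposed rats, and the median log2 FC of the list was 0.19. The list mean was between 9.136 and 9.476 in controls and between 9.547 and 9.674 in exposed rats, so that the groups did not overlap. Cfi, the protease that inactivates C3b, showed the largest step, with 11.53 to 11.95 in controls (median 11.81) and 12.42 to 13.50 in exposed rats (median 12.92), an FC of 2.24 (log2 FC 1.16, standard error 0.20, adjusted p = 0.0046). C3, the central component, had 13.81 to 14.13 in controls and 14.39 to 15.01 in exposed rats (log2 FC 0.72, adjusted p = 0.019). Cfb, which forms the alternative pathway convertase, had a log2 FC of 0.64 (adjusted p = 0.019), and C4bpb, a chain of the inhibitor C4b-binding protein, one of 0.77 (adjusted p = 0.028). Itgam, the alpha chain of complement receptor 3 on myeloid cells, had 7.19 to 7.80 in controls and 8.09 to 8.61 in exposed rats without overlap (log2 FC 0.93, standard error 0.12, adjusted p = 0.0003). C3, Cfi and Itgam were DEGs in each of the 35 refits described in the closing section, whereas C4bpb was lost in 9 of them.

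In the coagulation and fibrinolysis list, 2 of 35 measured genes were DEGs, both over-expressed, against 0.482% of all genes. In the list 19 genes were higher in exposed rats and 16 were lower. Kng1, which encodes kininogen, the precursor of bradykinin, had 8.48 to 9.44 in controls (median 9.15) and 9.75 to 11.02 in exposed rats (median 10.43), with no overlap (log2 FC 1.31, adjusted p = 0.0049). By its probe of highest mean signal alone the log2 FC of Kng1 was 0.65 and not past the threshold (adjusted p = 0.115), and its other probes had 1.64 and 1.65. The median log2 FC of this list, 0.01, was close to that of all genes.

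Several genes of alternatively activated and particle-laden macrophages were over-expressed. Retnla, a small secreted protein made by macrophages and epithelium in type 2 responses, had 8.98 to 9.85 in controls (median 9.64) and 11.69 to 12.89 in exposed rats (median 12.02). The gap between the groups was larger than the spread of either group, with an FC of 6.21 (log2 FC 2.64, standard error 0.29, adjusted p = 0.0001). Chia, the acidic chitinase, had 14.22 to 14.96 in controls and 15.60 to 16.51 in exposed rats (log2 FC 1.43, adjusted p = 0.0004). Clec4a, a myeloid C-type lectin receptor, rose from 5.20 to 5.84 up to 5.90 to 6.53 (log2 FC 0.76, adjusted p = 0.037), a call that was lost in 16 refits. These were the 3 DEGs among 22 measured genes of alternative activation, against 0.482% over-expressed among all genes, and 18 of the 22 were higher in exposed rats, against 48.9%.

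Spp1, osteopontin, a matrix and cytokine-like protein of lipid- and particle-laden macrophages, varied widely in controls, from 6.88 to 9.88 (median 9.14), and ran from 10.16 to 11.52 in exposed rats (median 10.99). The groups did not overlap, and the log2 FC was 2.13 ± 0.49 (SE; adjusted p = 0.033), but the gene missed the threshold when exposed replicate 1, 4 or 6 or control replicate 2, 5 or 6 was left out. Ctsk, a cysteine protease that degrades collagen and elastin, had 10.78 to 11.51 in controls and 11.74 to 12.45 in exposed rats (log2 FC 0.84, adjusted p = 0.0027). Cd5l, a protein secreted by tissue macrophages, was higher in exposed rats (3.82 to 6.02) than in controls (1.89 to 2.62; adjusted p = 0.0061). It was nowhere well above background in controls and was so in only 3 of 6 exposed rats, so that no fold is given. Its call was lost in 2 refits, with normexp background correction and with the deposited table. Spp1 and Ctsk were the 2 DEGs among 33 measured genes of lipid- and particle-laden macrophages, against 0.482% over-expressed among all genes. Of the 33 genes 26 were higher in exposed rats, against 48.9% of all genes. Other myeloid genes, chosen after their values were seen, were DEGs too. Lilrb4, an inhibitory receptor, rose from a median of 9.98 to 10.84 (log2 FC 0.89), and Slc7a7, a transporter of cationic amino acids, rose from a median of 7.09 to 7.86 (log2 FC 0.89).

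None of the 14 measured macrophage markers was a DEG, 11 were higher in exposed rats, the median log2 FC was 0.13, and the list mean ran from 9.135 to 9.554 in controls and from 9.371 to 9.681 in exposed rats. Cd68, a lysosomal glycoprotein of macrophages, had 12.82 to 13.22 in controls and 13.18 to 13.60 in exposed rats, a log2 FC of 0.42 that passed the adjusted p (0.0297) and not the FC limit. Mrc1, the mannose receptor, had a log2 FC of -0.07, and Marco was not well above background on any of the 12 arrays. At the unadjusted p by limma 4 of the macrophage markers were higher and 1 was lower. Of the 14 measured neutrophil markers, none was a DEG (0 higher and 1 lower at the unadjusted p), 3 were higher in exposed rats and the median was -0.21, with list means of 6.223 to 7.384 in controls and 6.552 to 6.954 in exposed rats. Cd177, a neutrophil surface protein outside the list and chosen after its values were seen, was a DEG, with 11.37 to 12.22 in controls and 12.29 to 13.42 in exposed rats (log2 FC 1.06, adjusted p = 0.043). In a whole lobe, more cells of a type and more RNA per cell cannot be told apart.

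Lysosomal genes differed by small amounts. Of 52 measured lysosomal enzymes and proton pump subunits, none was a DEG by limma (20 higher and 1 lower at the unadjusted p), but 47 were higher in exposed rats, where 48.9% of all genes were, and the median log2 FC was 0.18. The highest log2 FC was 0.47, for Ctsh, a cathepsin, and only Grn, the lysosomal progranulin (log2 FC 0.45, adjusted p = 0.0286), and Naglu, an enzyme of heparan sulphate breakdown (log2 FC 0.30, adjusted p = 0.0157), passed the adjusted p. Acp2, lysosomal acid phosphatase, had a log2 FC of 0.42 (adjusted p = 0.476). The list mean ran from 10.90 to 11.30 in controls and from 11.15 to 11.45 in exposed rats, and 3 of the 6 exposed rats were above all controls.

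Antigen presentation held no DEG. Of 22 measured genes 19 were higher in exposed rats, 9 of them at the unadjusted p of limma, the median log2 FC was 0.31, and the list mean was 9.88 to 10.39 in controls and 10.43 to 10.59 in exposed rats. RT1-Da, a class II chain of the rat major histocompatibility complex, had 12.89 to 13.21 in controls and 13.35 to 13.55 in exposed rats without overlap (log2 FC 0.40, adjusted p = 0.0705). Ciita, the transcriptional coactivator of class II genes, had a log2 FC of 0.54 (adjusted p = 0.091), while the class I light chain B2m had one of 0.01.

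Lpo, lactoperoxidase, had 6.75 to 8.02 in controls (median 7.62) and 9.13 to 9.90 in exposed rats (median 9.53), with no overlap and an FC of 4.02 (log2 FC 2.01, standard error 0.22, adjusted p = 0.0001). Duox1, the dual oxidase that supplies hydrogen peroxide, ran from 8.01 to 8.76 in controls and from 9.12 to 10.04 in exposed rats (log2 FC 1.11, adjusted p = 0.00292). Duoxa1, the factor that brings Duox1 to the cell surface, rose by nearly the same amount, from 7.03 to 7.75 up to 8.07 to 8.69 (log2 FC 1.03, adjusted p = 0.0004). Slc26a4, pendrin, an anion exchanger that carries thiocyanate, had 6.97 to 8.28 in controls and 8.89 to 10.24 in exposed rats (log2 FC 1.61, adjusted p = 0.00272). All 6 exposed rats were above all 6 controls for each of these genes. Lpo was named by the rule, and Duox1, Duoxa1 and Slc26a4 were chosen after their values were seen.

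Other epithelial genes rose beside them. Mmp7, a metalloproteinase of injured airway and alveolar epithelium, had 6.47 to 7.91 in controls and 7.84 to 8.89 in exposed rats, with 5 of 6 exposed rats above all controls (log2 FC 1.49, adjusted p = 0.0027). It was the DEG among 25 measured matrix proteases and inhibitors, of which 8 were higher and 17 lower in exposed rats. The median log2 FC of that list was -0.03 and the lowest, of a gene that was not a DEG, was -1.57. Bpifb1, a secretory protein of the large airways and the DEG of 14 secretory cell markers (median log2 FC -0.17), rose from 10.02 to 10.73 up to 10.99 to 12.99 (log2 FC 1.21, adjusted p = 0.025). Muc1, a transmembrane mucin that also marks type II pneumocytes, had a log2 FC of 0.61 (adjusted p = 0.023). The calls of Bpifb1 and Muc1 were lost in 6 and 8 refits. Galnt5, which starts O-linked glycosylation of mucins, rose from 2.00 to 4.01 up to 4.43 to 5.25 (log2 FC 1.87, adjusted p = 0.0026), but was well above background in 1 control only.

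**Figure D2:**
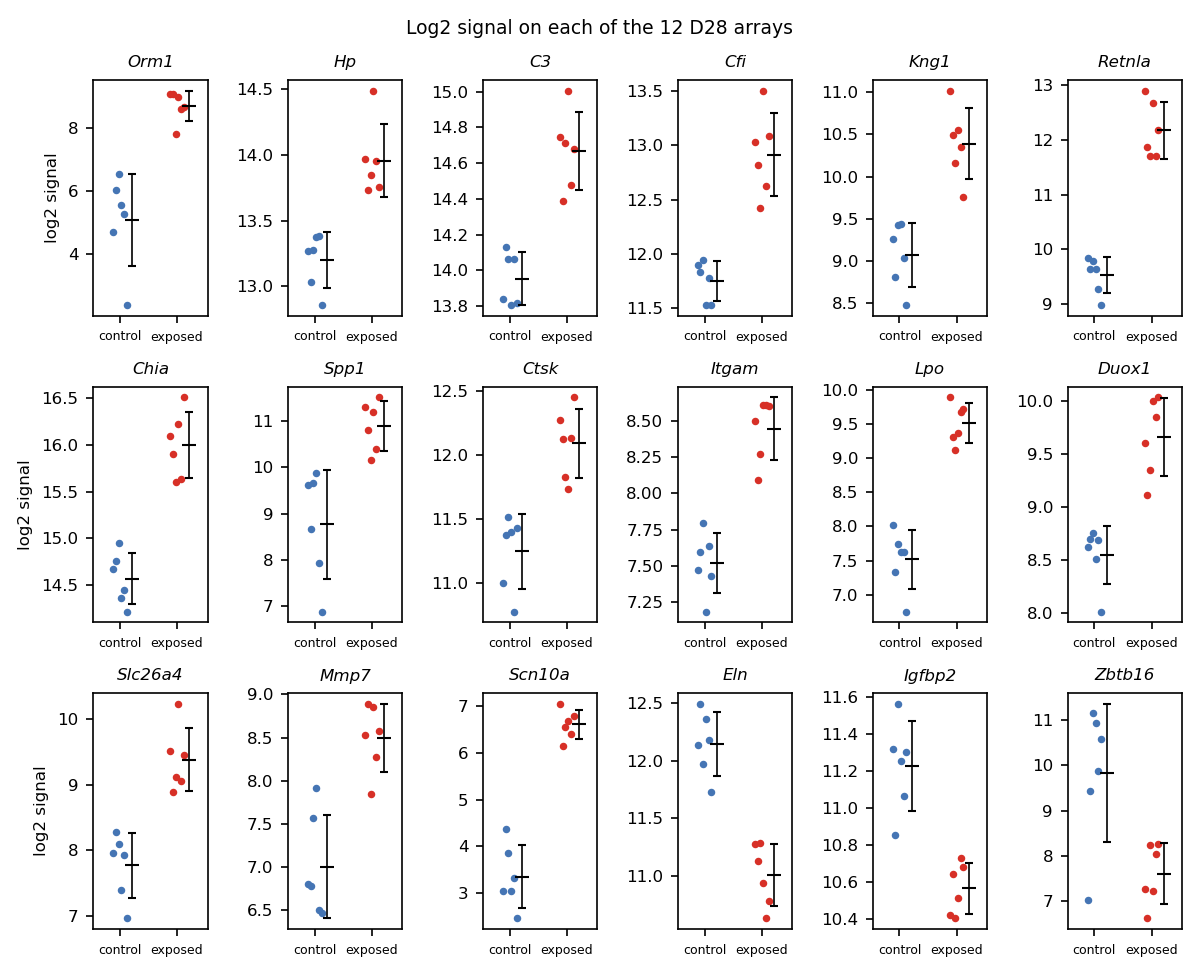
Log2 signal of 18 genes on each of the 12 D28 arrays, with 6 control (blue) and 6 exposed (red) rats per gene; the black mark beside each group is the mean with its SD, and each panel has its own axis. For Retnla the exposed rats lay between 11.69 and 12.89 above controls between 8.98 and 9.85, whereas 1 control of Zbtb16, at 7.02, lay within the exposed range.

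A row of late cornified envelope genes, which encode structural proteins of stratified squamous epithelium and skin, held the largest FC after Orm1. The probes of 7 measured genes of this row lie on chromosome 2 from 185714948 to 185872376 (rn4, as the array files give it). Of the 7, 6 were DEGs, all over-expressed. The row was drawn between its outermost DEGs, so this count cannot be measured against the 0.482% of all genes. LOC102549724, annotated as late cornified envelope protein 1E-like, had 6.02 to 7.61 in controls (median 6.49) and 8.81 to 11.34 in exposed rats (median 9.87), an FC of 9.84 (log2 FC 3.30, standard error 0.42, adjusted p = 0.00029). The non-coding transcripts LOC103691626 and LOC103691629, which lie next to it, had log2 FC of 3.07 (adjusted p = 0.00039) and 2.98 (adjusted p = 0.00044) and did not overlap between groups either. LOC103691629 is named Lce1fl1 in the current RefSeq annotation. The other 3 DEGs of the row had smaller means over their probes: Lce1f had a log2 FC of 1.25 (adjusted p = 0.0061), LOC102552128, the 1C-like gene, one of 1.82 (adjusted p = 0.0111), and Lce1l, now Lce1e, one of 1.47 (adjusted p = 0.00044). LOC103691631, between them, had 4.72 to 5.57 in controls and 4.89 to 6.20 in exposed rats and was not a DEG (log2 FC 0.36, adjusted p = 0.579). The probes of these 3 genes disagreed, with a log2 FC of 2.28 and 0.23 for Lce1f, 2.76 and 0.87 for LOC102552128, and 3.08 and -0.13, of opposite sign, for Lce1l. The higher probe of each was thus closer to LOC102549724, whose probes had 3.27 and 3.33, than the mean was. Genes of this family are close copies of each other, so a signal may be shared among them and the value of any single copy is uncertain. The row was chosen after the values were seen, as were the neighbouring genes below.

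**Figure D3:**
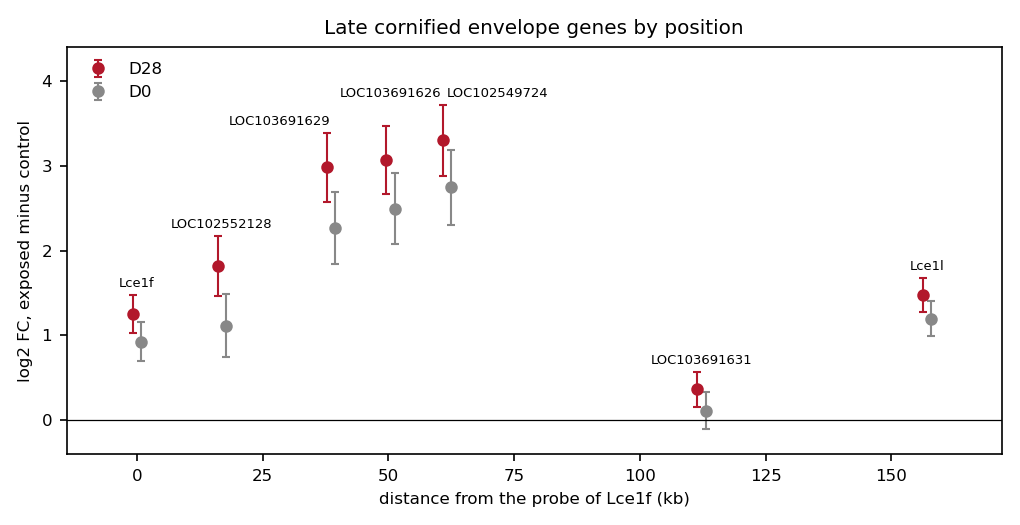
Log2 FC (exposed minus control) with its standard error on D28 (red) and D0 (grey) for the 7 measured genes of the late cornified envelope row, by the distance of their probes from that of Lce1f in kb. Each point is the mean over the probes of a gene, 3.30 on D28 for LOC102549724 and 0.36 for LOC103691631, and the lower points of Lce1f, LOC102552128 and Lce1l average probes that disagreed.

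Other DEGs also lay side by side in the genome. Of the 166 DEGs with 1 mapped place, 29 lay within 200 kb of another DEG, in 12 places (rn4). How often other genes lie as close was not tested. In 3 of the places the DEGs had opposite directions: Gng13 and Haghl (log2 FC -0.82 and 0.62), Slc34a3 and Sapcd2 (-0.60 and 0.60), and Asic4 and Obsl1 (-0.80 and 0.63). Retnla and its neighbour Retnlb lie on chromosome 11 from 53206606 to 53227145. Retnlb was higher in exposed rats (adjusted p = 0.00582). It was nowhere well above background in controls and was so in only 4 exposed rats, so that no fold is given. Further along chromosome 11, from 80008747 to 80279644, Kng1, Kng2 and Fetub, a family of liver-type plasma protease inhibitors, had log2 FC of 1.31, 1.00 and 0.68. Duoxa1 and Duox1 lie on opposite strands of chromosome 3 from 109082646 to 109128388. Slc26a4 and the non-coding LOC102555378 (log2 FC 1.41, adjusted p = 0.0113) lie on chromosome 6 from 49388822 to 49395832. Slamf9 and Slamf8, receptors of myeloid cells, lie on chromosome 13 from 88482898 to 88586571 with log2 FC of 0.80 and 0.69, and Fcrl2 and Cd5l on chromosome 2 from 179285273 to 179394274. LOC689757 and LOC689770, which RefSeq now names Clec2d2l1 and Clec2d2l2 after an inhibitory lectin, lie on chromosome 4 from 165853013 to 165910665; they had log2 FC of 1.13 (adjusted p = 0.00029) and 1.10 (adjusted p = 0.000859) and, as similar copies, may share signal.

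Scn10a, which encodes a voltage-gated sodium channel best known from sensory neurons, had the lowest adjusted p of the genes named here. Its log2 signal ran from 2.46 to 4.36 in controls (median 3.19) and from 6.15 to 7.05 in exposed rats (median 6.63). The exposed rats formed a narrow band far above all controls, with a log2 FC of 3.26 ± 0.33 (SE; adjusted p = 5.16e-05). The probe was well above background in 1 control and in all 6 exposed rats, so the control level was poorly measured. Of the 12 sodium channel genes measured it was the DEG, and the median log2 FC of the family was -0.04. Its probe lies on chromosome 8 from 124578227 to 124578286 (rn4).

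The remaining genes with the largest over-expression had varied roles. Gsg1, named for germ cells, ran from 2.64 to 5.01 in controls and from 5.60 to 8.04 in exposed rats (log2 FC 2.10, adjusted p = 0.024). Its call was lost in 2 refits, among them the one without exposed replicate 4. Dio3, the deiodinase that inactivates thyroid hormone, ran from 4.67 to 5.39 and from 5.74 to 8.15 (log2 FC 1.79, adjusted p = 0.0027). Mab21l3 ran from 2.05 to 4.28 and from 4.51 to 5.73 (log2 FC 1.77, adjusted p = 0.018) and was well above background in 2 of 6 controls. None of these genes overlapped between the groups.

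Chemokine and cytokine genes were mostly not DEGs at this time. Of 35 measured chemokine ligands 2 were, both over-expressed, against 0.482% of all genes. Ccl1, a ligand of Ccr8, had 3.53 to 5.48 in controls and 5.57 to 6.55 in exposed rats (FC 2.84, adjusted p = 0.039). Ccl28, a mucosal chemokine, was well above background in no control and 1 exposed rat, so that no fold is given (adjusted p = 0.037). The calls of Ccl1 and Ccl28 were lost in 14 and 17 refits, among them the one without exposed replicate 4. That array had the highest mean of this list, at 9.721 against at most 9.267 on the other exposed arrays. In controls the list mean was 9.001 to 9.134, and 5 exposed rats lay above all controls. Of the 35 ligands 21 were higher in exposed rats, and the median log2 FC was 0.06. None of the 26 chemokine receptors and none of the 44 interleukin and TNF family genes was a DEG by limma, with 9 higher and 2 lower ligands, 1 higher and 1 lower receptor and 6 higher and 1 lower cytokine at the unadjusted p. Ccr1 had a log2 FC of 0.16 (adjusted p = 0.88) and Il1a one of 0.26 (adjusted p = 0.62). Among sensors of microbial products and their feedback genes, Tmem173, the DNA sensor adaptor STING, had 8.18 to 8.90 in controls and 8.86 to 9.84 in exposed rats (log2 FC 0.76, adjusted p = 0.01) and was the DEG of 36 measured genes. Usp18, a brake on interferon signalling, had a log2 FC of 0.61 (adjusted p = 0.045) among 38 interferon-stimulated genes and was lost in 22 refits. Prss30, a serine protease listed with mast cell genes, had 7.27 to 7.82 in controls and 8.01 to 9.58 in exposed rats (log2 FC 1.01, adjusted p = 0.0065), while the other 13 mast cell and basophil markers were not DEGs and 5 of 14 were higher.

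Dhcr7, the last enzyme of cholesterol synthesis, had 7.73 to 8.32 in controls and 8.48 to 9.17 in exposed rats without overlap (log2 FC 0.79, adjusted p = 0.018) and was the DEG of 34 measured genes of fatty acid and cholesterol synthesis, with a list median of 0.25. Scd, a fatty acid desaturase, pointed the other way with a log2 FC of -1.40 (adjusted p = 0.053) and 1 exposed rat within the range of the controls.

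Under-expressed DEGs were fewer and smaller. Zbtb16, a transcription factor that glucocorticoids induce, had the largest decrease: 7.02 to 11.16 in controls (median 10.24) and 6.62 to 8.27 in exposed rats (median 7.65). The control at 7.02 was replicate 1, and the other 5 controls lay above all exposed rats. The log2 FC was -2.23 ± 0.50 (SE; adjusted p = 0.03). Fkbp5, a cochaperone of the glucocorticoid receptor and another glucocorticoid-induced gene, had 11.45 to 13.25 in controls and 10.94 to 11.90 in exposed rats (log2 FC -1.02, adjusted p = 0.027). Zbtb16 was no longer a DEG when exposed replicate 1, 2 or 4 or control replicate 3, 4, 5 or 6 was left out, and Fkbp5 when exposed replicate 1, 2 or 5 or control replicate 2, 3 or 4 was. They were the 2 DEGs among 17 measured glucocorticoid-induced genes, against 0.267% under-expressed among all genes, and the other 15 were not DEGs. In the list 11 genes were lower and 6 higher in exposed rats, and the median log2 FC was -0.11. At the unadjusted p of limma 5 were lower and 1 was higher. The list mean ran from 10 to 10.58 in controls and from 9.509 to 10.22 in exposed rats, with 4 exposed rats below all controls.

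Eln, which encodes tropoelastin, the core of elastic fibres in the alveolar wall, was clearly lower. It had 11.73 to 12.49 in controls (median 12.15) and 10.63 to 11.29 in exposed rats (median 11.03). No exposed rat reached the control range, and the level was 2.20-fold lower (log2 FC -1.14, standard error 0.14, adjusted p = 0.00029). On D0 the same gene had 9.77 ± 0.15 in controls (SD, n = 6) and 9.71 ± 0.28 in exposed rats (n = 5), so that the controls themselves differed between the days by more than the exposure effect. Of the 31 measured genes of fibrosis and elastic matrix, 29 were not DEGs, and of 37 collagens only Col9a2, a minor cartilage-type collagen chain, was one (log2 FC 0.61, adjusted p = 0.018). The call of Col9a2 was lost in 7 refits. Npr3, the clearance receptor of natriuretic peptides, fell from 8.02 to 8.70 down to 6.60 to 7.95 (log2 FC -1.21, adjusted p = 0.0027), and Fibin, a secreted growth factor, from 8.90 to 9.18 down to 7.61 to 8.35 (log2 FC -1.05, adjusted p = 0.0004). Both were DEGs in all 35 refits, as Eln was.

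Igfbp2, an insulin-like growth factor binding protein of type I pneumocytes, had 10.85 to 11.56 in controls and 10.40 to 10.73 in exposed rats without overlap (log2 FC -0.66, adjusted p = 0.014). It was the DEG of 12 measured type I markers, of which 11 were lower in exposed rats, with a median log2 FC of -0.29. Fam13a (log2 FC -1.17, adjusted p = 0.0088), Ephx4, an epoxide hydrolase (1.99-fold lower, adjusted p = 0.0023), Lbhd2 (log2 FC -1.08, adjusted p = 0.04), Hs3st6, a heparan sulphate sulphotransferase (log2 FC -1.07, adjusted p = 0.0038), and Macrod2 (log2 FC -0.99, adjusted p = 0.0093) fell without overlap. The call of Lbhd2 was lost in 15 refits. Ube2ql1, a ubiquitin-conjugating enzyme, ran from 5.81 to 6.76 in controls and from 4.22 to 5.58 in exposed rats (log2 FC -1.27, adjusted p = 0.005). Klk1c3, a kallikrein-related protease, was lower in exposed rats (adjusted p = 0.0074). It was well above background in 1 control and no exposed rat, so that no fold is given. Myl7, the atrial myosin light chain, was the DEG of 21 cardiac and skeletal muscle genes (log2 FC -0.63, adjusted p = 0.011), a list in which exposed replicate 1 had a mean of 8.297 against at most 6.719 on the other exposed arrays.

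Genes of the circadian clock set D28 apart from D0. The clock is a feedback loop in which the proteins of Arntl and Npas2 or Clock drive genes such as Nr1d1, Nr1d2, Dbp, Per2 and Cry1 from E-box elements, Dbp acts on D-box elements, and Nr1d1 and Nr1d2 repress Arntl and Npas2 from ROR elements. Of 13 measured clock genes that rise with Nr1d1, 4 were DEGs and over-expressed (0.482% of all genes), 11 were higher in exposed rats (48.9% of all genes) and the median log2 FC was 0.68. Of 6 that rise with Arntl, 3 were DEGs and under-expressed (0.267% of all genes), and the median was -0.62. The list means of the exposed rats lay outside those of the controls for both lists, at 7.740 to 8.755 against 7.323 to 7.599 and at 7.005 to 7.437 against 7.477 to 8.091.

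To show where the elements lie, the stretches of promoter that held a match are printed, with the matched letters in capitals. The 250 bases before the annotated start of 6 of the 7 clock DEGs, in 7 windows from RefSeq (GRCr8), were searched on both strands for the E-box CACGTG, the D-box TTATGTAA and the ROR element of 10 letters, as shown in capitals with the base before TAGGTCA free, and no matches overlapped.
Arntl (Bmal1 in RefSeq; chr1:176766268-176766327, plus strand, bases 60 to 1 before the start): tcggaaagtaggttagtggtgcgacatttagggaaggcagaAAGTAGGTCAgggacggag
Nr1d1 (chr10:84229615-84229674, minus strand, bases 220 to 161 before the start): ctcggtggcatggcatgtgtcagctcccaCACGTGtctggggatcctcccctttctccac
Per2 (chr9:99497154-99497213, minus strand, bases 220 to 161 before the start): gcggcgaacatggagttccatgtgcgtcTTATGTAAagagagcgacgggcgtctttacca
Over all 33469 promoter windows of the table, 5.59% held the E-box, 0.828% the D-box and 0.206% the ROR element. The windows of Dbp, Nr1d2 and Npas2 held none of these letters, and that of Cry1 was not used here.

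Dbp, a transcription factor of the output of the clock, showed the largest step of these genes on D28, with 9.30 to 10.22 in controls (median 9.70) and 11.13 to 13.72 in exposed rats (median 12.21). Its log2 FC was 2.75 ± 0.33 (SE; adjusted p = 0.00029), and on D0 it was -1.16. Nr1d1, the repressor REV-ERB alpha, had 6.07 to 7.51 in controls and 7.40 to 9.75 in exposed rats on D28, with 5 exposed rats above all controls and a log2 FC of 2.00 (adjusted p = 0.0063), against -2.50 on D0 (adjusted p = 0.00063). Cry1, a repressor of the loop, did the reverse, with 8.76 to 9.45 in controls and 8.09 to 8.75 in exposed rats on D28 (log2 FC -0.87, adjusted p = 0.0014) and a log2 FC of 0.81 on D0. Nr1d2, the paralogue of Nr1d1, had a log2 FC of 1.11 (adjusted p = 0.0066), Per2, a repressor of the loop, one of 1.10 (adjusted p = 0.012), Npas2 one of -1.02 (adjusted p = 0.0071) and Arntl one of -1.25 (adjusted p = 0.013).

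For most of these genes the control means of the days lay far apart. For Dbp it was 13.87 ± 0.31 on D0 and 9.74 ± 0.33 on D28 (SD, n = 6 each), for Per2 it was 9.90 ± 0.27 and 7.53 ± 0.35, for Npas2 6.56 ± 0.20 and 9.33 ± 0.19, and for Arntl 7.30 ± 0.43 and 9.71 ± 0.26. The exposed rats of D28, with means of 12.49 for Dbp, 8.63 for Per2, 8.31 for Npas2 and 8.47 for Arntl, lay between the control means of both days. Cry1 differed from this, with 8.97 ± 0.12 in controls on D0 and 9.17 ± 0.30 on D28 and an exposed mean of 8.31 on D28, below both. The time of day at which each group was killed is not given in the sources used here, and its part in these values was not tested.

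The test of the difference between the D28 and the D0 exposure effect found 7 genes (0.0301%), and 800 at an unadjusted p below 0.05. They were Nr1d1 (difference 4.49, standard error 0.52, adjusted p = 0.00023), Dbp (3.91, adjusted p = 0.00052), Nr1d2 (1.80, adjusted p = 0.013), Cry1 (-1.67, adjusted p = 0.00023), Rasd2, Grin2c and Prss30. Rasd2, a small GTPase named for its expression in the striatum, had 7.82 to 8.16 in controls and 8.99 to 10.19 in exposed rats on D28 (log2 FC 1.49, adjusted p = 0.00029) and a log2 FC of -0.48 on D0 (difference 1.97, adjusted p = 0.0024). Grin2c, a glutamate receptor subunit, had 9.01 to 9.28 and 9.46 to 9.92 on D28, a log2 FC of 0.58 just under the FC limit, and -0.24 on D0 (difference 0.81, adjusted p = 0.013). Prss30 rose on both days and by less on D28, from a log2 FC of 2.56 to one of 1.01 (difference -1.55, adjusted p = 0.023). For Arntl (difference -1.83, adjusted p = 0.088) and Eln (difference -1.07, adjusted p = 0.083) the difference missed the threshold.

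Most of what was found on D28 had the same direction on D0, in rats that shared neither exposed nor control animals with those of D28. Of the 174 DEGs of D28, 161 had the same sign on D0, 106 of the 112 over-expressed and 55 of the 62 under-expressed ones, where 62.8% of all genes had the same sign on both days. The DEGs of both days numbered 89, which is 51.1% of those of D28 and 21.8% of the 408 of D0 (1.75% of all genes), and 87 of them agreed in direction. Of the over-expressed DEGs 70 of 112 and of the under-expressed ones 19 of 62 were DEGs on D0 too. The 13 DEGs of opposite sign included Dbp, Nr1d1, Nr1d2, Cry1, Arntl and Rasd2.

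Read from D0 instead, the values were smaller on D28. Of the 250 genes over-expressed on D0, 238 were still higher on D28 and 69 were DEGs in that direction (27.6%), with a median log2 FC of 0.96 on D0, the day that chose them, and 0.50 on D28. Of the 158 under-expressed on D0, 147 were still lower and 18 were DEGs (11.4%), with medians of -0.77 and -0.38. Orm1, Scn10a and Spp1 had nearly the same log2 FC on both days, at 3.56, 3.03 and 2.20 on D0 and 3.62, 3.26 and 2.13 on D28. Among genes chosen for their size on D0, Cxcl6, a neutrophil chemokine, had 2.36 on D0 and 0.29 on D28 (adjusted p = 0.925), Aqp3, a water and glycerol channel, 2.29 and 0.55, Tent5b -1.79 and 0.04, and Per1 -1.41 and 0.02. The difference between the days passed its test for none of these 4 genes (adjusted p = 0.139 for Tent5b, 0.81 for Per1 and 0.9998 for Cxcl6 and Aqp3), and for 2 of the 250 and 1 of the 158 D0 DEGs. The cell cycle list followed this pattern, with a median log2 FC of 0.82 on D0 and 0.29 on D28, when 34 of 39 genes were higher and none was a DEG by limma (14 higher at the unadjusted p). Mki67, the proliferation marker, had 0.45 on D28 (adjusted p = 0.11) and 1.11 on D0.

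**Figure D4:**
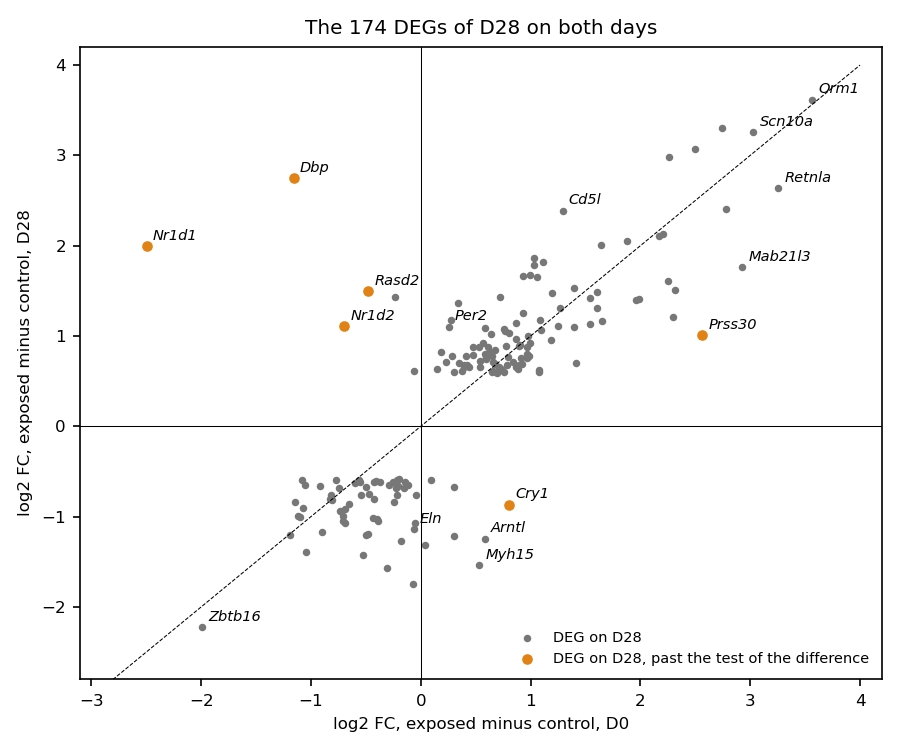
Log2 FC of the 174 DEGs of D28 on D28 (vertical) and on D0 (horizontal), with the dashed line at equal values and genes past the test of the difference in orange. Most points lie in the lower left or upper right, and Dbp (2.75 against -1.16), Nr1d1 (2.00 against -2.50), Nr1d2 and Rasd2 stand apart in the upper left.

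Some DEGs of D28 had hardly moved on D0. Among over-expressed DEGs the smallest D0 values were those of Haghl (log2 FC 0.62 on D28 and -0.06 on D0), Cyp2c23, an epoxygenase of arachidonic acid (0.63 and 0.15), LOC102554116 (0.82 and 0.19), Chdh, choline dehydrogenase (0.71 and 0.23), and the olfactory receptor Olr1486, which was not well above background on any of the 12 arrays. Among under-expressed ones they were Eln, Hs3st6, LOC103694955, LOC102549751 and LOC102553541, where the last 3 are uncharacterized non-coding transcripts that were nowhere well above background in exposed rats, LOC102553541 being at least 1.72-fold lower and LOC103694955 being nowhere well above background in controls either. The difference between the days passed the test for none of these genes. On D0, LOC102549751 and LOC103694955 were well above background on no array. Olr1486 was so in 1 exposed rat only, and LOC102553541 in 2 exposed and 2 control rats. The D0 changes of these 4 genes were thus poorly measured. The DEG call was lost in 21 refits for LOC102549751, 18 for Olr1486, 17 for Haghl, 16 for LOC102553541 and 10 for LOC102554116. Among under-expressed provisional symbols without overlap, RGD1561327, similar to a melanoma antigen, had a log2 FC of -1.21 (adjusted p = 0.0049) and RGD1566401, a non-coding RNA similar to GTL2, one of -1.05 (adjusted p = 0.035, lost in 11 refits). LOC102556220 was well above background in 1 control and no exposed rat, so that no fold is given (adjusted p = 0.0496), and its call was lost in 26 refits.

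Markers of other lung cell types held few DEGs. Of 15 type II pneumocyte markers 13 were higher in exposed rats, with Muc1 as the DEG and a median log2 FC of 0.20. Markers of ciliated cells were lower in 16 of 17 cases with a median of -0.27, and Foxj1, the master factor of motile cilia, had a log2 FC of -0.27 (adjusted p = 0.28). Endothelial markers were lower in 18 of 21 cases (median -0.18; Pecam1 log2 FC -0.34, adjusted p = 0.51), and blood and platelet markers in 11 of 12 (median -0.32; Hbb log2 FC -0.31, adjusted p = 0.54). T and NK cell markers (median -0.07; Cd3d 0.10), B and plasma cell markers (median 0.10) and smooth muscle markers (median -0.05; Acta2 0.03) lay near the median of all genes. Adipocyte and mesothelial markers had a median of -0.24, with Adipoq at 0.49 (adjusted p = 0.84). At the unadjusted p of limma 7 ciliated, 7 endothelial, 5 adipocyte or mesothelial, 2 smooth muscle and 2 blood markers were lower, and 1 T and NK and 1 B cell marker was higher. The part of these differences in the values of the DEGs was not tested.

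Lists without a DEG also included the antioxidant and glutathione genes (16 of 34 higher, median log2 FC -0.04, Nqo1 0.09), metal handling (17 of 27 higher, median 0.07, Mt2A 0.30 with adjusted p = 0.51, against 1.00 on D0), fructose and mannose metabolism (17 of 29 higher, median 0.07, Hk1 0.26), and immediate early and heat shock genes (11 of 24 higher, median -0.04, Fos -0.06). At the unadjusted p of limma 6, 5, 9 and 3 genes of these lists were higher and 8, 1, 2 and 2 lower. In all, 41 DEGs belonged to any of the 39 lists and 133 to none.

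**Figure D5:**
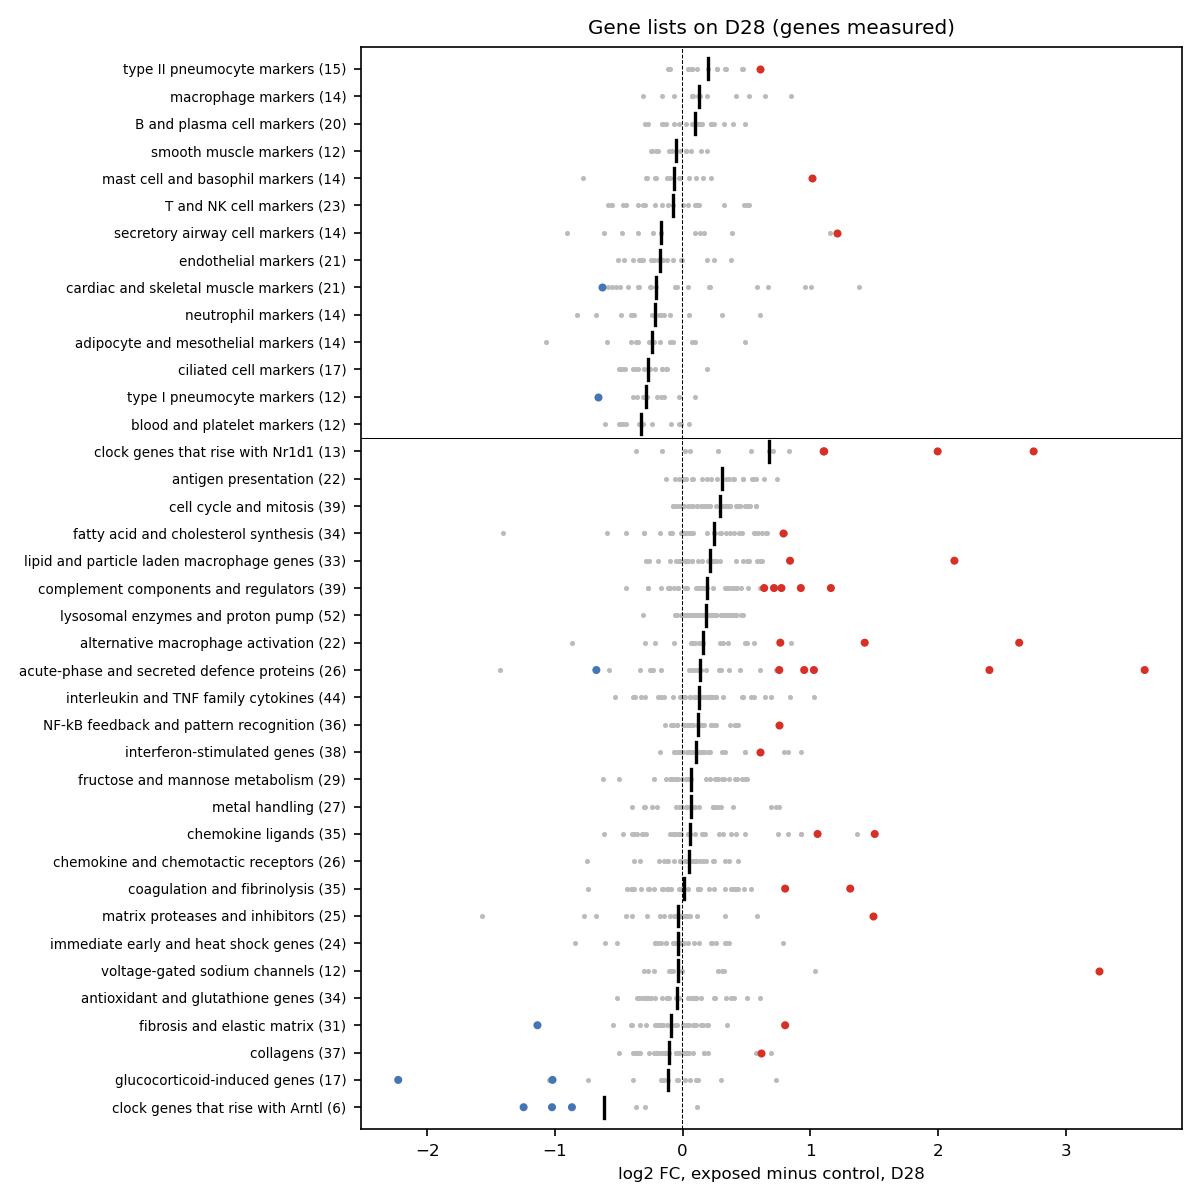
Log2 FC on D28 of every measured gene of the 39 lists (grey points), with over-expressed DEGs in red, under-expressed DEGs in blue and the list median as a black bar; the dashed line is the median of all genes, and the cell type lists stand above the solid line. The clock lists have the medians farthest from 0, 0.68 and -0.62, and the lysosomal list lies almost wholly above 0 without a DEG.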

How the data were processed

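Total RNA of the accessory lung lobe was hybridised to Agilent 1-colour rat arrays, 23 in all, and the groups came from the array titles. Scanner output holds spot intensity that the authors obtained with Agilent Feature Extraction, already background-corrected as the processed signal. The file headers give version 11.0.1.1 for 22 arrays and version 12.0.1.1 for control replicate 4 of D28. A deposited table of all arrays holds quantile normalized intensities of the authors. These were log2 transformed here and served only as an alternative.

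Intensity was log2 transformed and quantile normalized, without control spots. A probe was used if 5 or more arrays exceeded the 95th percentile of the 308 negative controls, and probes of a gene were averaged. limma 3.58.1 in R 4.3.3 fitted 4 groups over the 23 arrays (19 residual degrees of freedom), with Benjamini-Hochberg adjustment over 23255 genes. The difference between the days was a contrast of the same model. For a gene below background in a whole group, a fold is given only where every array of the other group was well above background. That fold is a lower bound against the lowest signal well above background. No SD or p covers more than the spread between these rats, and the number of arrays limits the precision. On simulated data with independent normal noise, 11 of 50 genes raised 1.5-fold on D28 were called and 36 of 50 raised 2-fold. Estimates under the 1.5-fold limit could not be called, so the first count also reflects that limit. Of 23055 unchanged genes 7 were called.

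The gene lists and members were chosen with earlier results of these data known. Genes were named by rule: the 12 largest changes per direction without overlap and with established symbols, the DEGs of each list (at most 6) or else its first measured gene, genes past the difference test, 3 provisional symbols per direction, and the 5 DEGs per direction with the smallest change on D0. Other genes given with values were chosen after their values were seen. Positions refer to rn4, the build named in the file headers. No column of another series was found (0 unused). Alternatives varied the normalization, background, filter, probe choice, samples, weights, blocks and thresholds. A few genes that the rule or the lists include are not reported here.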

Additional observations from a re-analysis of the deposited data

Results flagged for a closer look

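Arrays far from the other 5 of their group were sought in 222 groups of 6 by the gap of the extreme array to its neighbour as a share of the range of the group, and 18 were found, 7 for genes and 11 for lists. Chance gives about 1 in 20 groups. In controls these were Gsg1 (0.743, replicate 6 low), antigen presentation (0.645, replicate 4 low) and immediate early and heat shock genes (0.752, replicate 6 high). Among genes in exposed rats they were Gsg1 (0.678, replicate 4 high), Hp (0.692, replicate 4 high), LOC102549751 (0.912, replicate 1 high), LOC103694955 (0.647, replicate 2 high), Lbhd2 (0.822, replicate 5 low) and Wfdc21 (0.715, replicate 2 high). Among lists, exposed replicate 4 stood apart for chemokine ligands (0.685, high), chemokine receptors (0.852, low), acute-phase proteins (0.718, high) and interferon-stimulated genes (0.65, high). Exposed replicate 1 stood apart for skeletal and cardiac muscle (0.811, high) and for pattern recognition (0.638, low), replicate 2 for T and NK cells (0.686, high), and replicate 6 for complement (0.743, high) and type I pneumocytes (0.627, high).

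The exposure effect differed between D28 and D0 by the model's test for Nr1d1 (4.492 on the log2 scale), Dbp (3.906), Rasd2 (1.974), Nr1d2 (1.805), Grin2c (0.8139), Prss30 (-1.554) and Cry1 (-1.674). Cry1, Dbp, Nr1d1, Nr1d2 and Rasd2 passed in 34 of 34 refits, Grin2c in 32 and Prss30 in 20.

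Among 8139 tested probes without a gene symbol, 7 passed the DEG limits on D28 (0.086%).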

How the results depend on the processing

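Of the 71 named DEGs, 17 stayed DEGs in all 35 refits, 54 were lost in at least 1, and none changed direction. The 174 DEGs (112 over- and 62 under-expressed) became 94 (68 and 26) with normexp background correction, with 16 genes past the difference test in place of 7. The deposited table gave 120 (85 and 35), and the 12 arrays of D28 alone 41 (33 and 8). With slide as a block there were 250 (156 and 94). The adjusted p without a fold limit gave 303 (180 and 123), and the unadjusted p with it 663 (355 and 308). Genes past the difference test were 13 with the stricter background filter and 12 with a trend and robust estimation. Leaving out 1 array gave 111 to 202 DEGs, 74 to 126 over- and 32 to 76 under-expressed, and 6 to 11 genes past the difference test; the lowest count was without exposed replicate 1 and the highest without exposed D0 replicate 4. Of 1365 list medians compared, 25 changed sign. The cause of these changes was not tested.

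Replicate numbers were not treated as pairs, since the labels tie them to nothing shared and the deviations of same-numbered rats on D28 did not all correlate: r was 0.0993, 0.354, -0.171, 0.258, 0.451 and -0.131. As a hint of shared variation, 3 of 6 controls correlated best with their own number. With the replicate number as a block there were 137 DEGs (89 and 48), and 5 genes were past the difference test.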
